A study of Homo sapiens with 8 samples.

Results

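The nuclear-encoded oxidative phosphorylation genes were examined in RNA polymerase II (RNAPII) chromatin immunoprecipitation sequencing (ChIP-seq) of MDA-MB-453 cells, a luminal-like triple negative breast cancer cell line. Members were the protein-coding genes on chromosomes 1 to 22 and X whose symbols name a subunit of a respiratory complex (NDUFA, NDUFB, NDUFC, NDUFS and NDUFV with a number, SDHA to SDHD, UQCR, COX4 to COX8, and ATP5F, ATP5M and ATP5P). This rule found 88 of 19748 genes in the GENCODE release 44 annotation mapped to GRCh37, with 39 in complex I, 4 in complex II, 9 in complex III, 17 in complex IV and 19 in complex V. Within these 88, 9 are tissue-restricted isoforms or retrocopies and 2 are annotated readthroughs of a subunit gene into its neighbour. The other 77 are called core members, a label that covers accessory subunits too. Complexes were assigned from the symbol alone. Cells received vehicle or 600 nM CDDD11-8, an inhibitor of the kinase CDK9, for 4 h, and each treatment had 2 replicates from consecutive passages of this 1 line. The comparison asks how CDK9 inhibition redistributes RNAPII along a gene.

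Oxidative phosphorylation passes electrons from NADH through complex I, or from succinate through complex II, to complexes III and IV and oxygen, and the resulting proton gradient drives ATP synthesis by complex V. Most subunits are encoded in the nucleus by short, ubiquitously transcribed genes, and their promoters are known for binding sites of NRF1, the ETS factor GABPA and YY1. CDK9 is the kinase of P-TEFb, which phosphorylates RNAPII and its pausing factors near the promoter and so allows productive elongation.

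Promoter sequence was read for each member in the 250 bases before and 50 bases after the TSS of the Ensembl canonical transcript, on both strands. The NRF1 core GCGCANGCG was present in 26 of 88 members (29.5%), against 10.9% of all 19748 promoters and 17.8% of the 9951 other promoters with an RNAPII peak in all 4 libraries. The ETS core CCGGAAG was present in 24 members (27.3%), against 13.97% of all promoters and 23.7% of the occupied others. The YY1 core AANATGGCG, whose letters include a start codon, was present in 23 members (26.1%), against 4.99% and 8.84%. The GC box GGGCGGG was present in 22 of 88 members, against 47.2% of all promoters and 59.3% of occupied others, and a TATAAA box was present in 6 members (6.82%), against 9.74% and 4.51%. These matches describe the letters of the window, and some GC-rich motifs can overlap each other.

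The runs below are the 80 bases before the canonical TSS, 5′ to 3′ on the gene's strand in GRCh37, with the NRF1 or ETS core in capitals. They were chosen as runs that hold such a core and no annotated exon, with at least 1 gene from each complex that has one.
NDUFA1, chrX:119005715-119005794, plus strand, ETS core: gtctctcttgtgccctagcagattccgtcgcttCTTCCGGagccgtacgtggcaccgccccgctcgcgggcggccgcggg
UQCRH, chr1:46769290-46769369, plus strand, ETS core: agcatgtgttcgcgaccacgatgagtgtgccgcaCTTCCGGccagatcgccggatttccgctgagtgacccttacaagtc
UQCRFS1, chr19:29704059-29704138, minus strand, NRF1 core: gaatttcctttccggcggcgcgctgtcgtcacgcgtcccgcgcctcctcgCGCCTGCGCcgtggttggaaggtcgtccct
COX5B, chr2:98262445-98262524, plus strand, ETS core: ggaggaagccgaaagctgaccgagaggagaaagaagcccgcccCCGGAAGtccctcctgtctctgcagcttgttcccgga
ATP5MC2, chr12:54069868-54069947, minus strand, NRF1 core: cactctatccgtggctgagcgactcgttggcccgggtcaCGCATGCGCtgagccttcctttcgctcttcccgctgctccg
ATP5MC3, chr2:176046439-176046518, minus strand, NRF1 core: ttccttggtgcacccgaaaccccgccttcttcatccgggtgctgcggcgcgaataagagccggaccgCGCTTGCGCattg

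The libraries were available as lists of RNAPII-enriched regions called against input, with 78306 and 57493 regions with vehicle and 25897 and 21842 with CDDD11-8, covering 54.6 to 108 Mb. The study set a minimum of reads per sample, but the lists carry no counts and the depth of each library is unknown. The number of listed regions moved with treatment, so the means over all members were also computed on equal numbers of regions. Values of single genes, complexes, length strata and distances were not. Neither were the counts of genes called higher or lower, nor coverage compared among genes occupied at the promoter. Promoters of FOXA1, SPDEF, KRT8 and KRT18, genes of luminal breast cells, held a region in all 4 libraries, and those of ESR1, PGR, VIM and PTPRC held none in any. With 2 libraries against 2, the exact permutation test cannot give a two-sided p below 0.33, which is the value behind every difference called separated below. A measure is called separated, or a gene higher or lower, where both CDDD11-8 libraries lay on the same side of both vehicle libraries.

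Members were short genes. Their median length was 10.6 kb, against 25.1 kb for the other genes and 28.0 kb for the other genes occupied at the promoter in all libraries, and lengths ran from 0.63 kb (COX6A2, a muscle-type subunit) to 174 kb (COX7B2, a testis-type subunit). Bidirectional starts were frequent: 25 of 88 members (28.4%) had the TSS of a gene on the opposite strand within 1 kb upstream, against 9.35% of all genes. Examples are NDUFA1 with RNF113A at 99 bp and NDUFB1 with CPSF2 at 263 bp. In the 3 kb after the transcription end site (TES), 41 members had another gene and 11 had another TSS. The peak lists carry no strand, so RNAPII of a member and of such a neighbour cannot be told apart.

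All 77 core members were occupied at their canonical promoter in every library. A promoter peak, meaning a called region within 300 bp of the TSS, was present at 77 and 76 of 88 members with vehicle and at 77 and 76 with CDDD11-8. It was present in all 4 libraries at 74 members (84.1%), against 49.1% of all genes. With the canonical transcript in place of the longest isoform, 79 members had one in all 4 libraries, against 50.8% of all genes. These 79 were the 77 core members and both readthroughs. None of the 9 tissue-restricted genes or retrocopies was among them. Each readthrough shares its promoter peak with the subunit gene it extends, so these pairs are not independent.

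The members without a promoter peak in every library fell into these same groups. UQCRHL (a retrocopy of UQCRH), COX4I2 (a lung-enriched subunit), COX6A2, COX6B2 and COX8C (testis-type subunits), COX7B2 and ATP5MGL (a retrocopy of ATP5MG) had no promoter peak in any of the 4 libraries. UQCRHL, COX4I2, COX6A2, COX7B2, COX8C and ATP5MGL also had 0% of the gene body and 0% of the 3 kb after the TES inside a region in all 4. COX7A1, the heart and muscle isoform, had promoter peaks 7978 and 4984 bp wide with vehicle, one of 594 bp in the first CDDD11-8 library and none in the second, and CAPNS1 lies 569 bp from it on the opposite strand. COX6B2, which lies 212 bp from GARIN5B, was covered over 58.3% and 40.4% of its body with vehicle and 0% with CDDD11-8. NDUFA4L2, an inducible paralogue of NDUFA4 whose gene overlaps SHMT2, had a promoter peak in all 4 libraries at the longest isoform's TSS, of 596 and 7333 bp with vehicle and 4269 and 1252 bp with CDDD11-8, but at the canonical TSS had one with vehicle alone. NDUFA10, ATP5MJ, NDUFV1, ATP5MC2 and COX7A2 are core members whose longest isoform starts 1283 to 13682 bp from the canonical one. Each of them had a promoter peak at the canonical TSS in all 4 libraries. At the longest isoform's TSS, NDUFV1 had a peak only in the CDDD11-8 libraries, COX7A2 only in the vehicle libraries, and ATP5MC2 in all but the second vehicle library.

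Promoter peaks of the members were wider with CDDD11-8. Among the 74 members with a peak in all libraries, the median width was 3864 and 3540 bp with vehicle and 5424 and 4776 bp with CDDD11-8, a separated difference of 1399 bp. At 43 of 74 members the region was wider in both CDDD11-8 libraries, against 64.4% of all genes with a peak in all libraries and 55.9% of other genes weighted to the members' lengths, so the members' 58.1% was near the background. It was narrower in both at 10 members, against 9.42% of all such genes and 12.9% of other genes weighted to the members' lengths. The difference turned to -697 bp when regions within 1 kb of each other were merged, with medians of 7584 and 6155 bp with vehicle and 6458 and 5886 bp with CDDD11-8. Mean widths of members minus those of other genes of like length were -554 and -526 bp with vehicle and -683 and -291 bp with CDDD11-8, and were not separated.

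The region was also measured on each side of the TSS. The median reach into the gene was 2080 and 1708 bp with vehicle and 2506 and 2432 bp with CDDD11-8, and the median reach upstream was 1510 and 1412 bp against 2740 and 2276 bp. Upstream reach was larger in both CDDD11-8 libraries at 52 of 74 members, against 66.5% of all genes with a peak in all libraries. Reach into the gene was larger at 37 of 74, against 59.3%. Among other genes weighted to the members' lengths, the shares were 62.2% for upstream reach and 51.3% for reach into the gene. The difference in reach into the gene turned from 575 to -439.5 bp when regions within 1 kb were merged. Summits stayed near the start. The strongest lay within 500 bp of the TSS at 56 and 59 of 74 members with vehicle and at 65 and 66 with CDDD11-8. These counts, too, have no share of all genes beside them. The region of NDUFC1, an accessory subunit of complex I whose gene overlaps NAA15, went from 2628 and 2964 bp with vehicle to 12066 and 11187 bp with CDDD11-8. Its strongest summit lay 1033 to 1170 bp downstream of the TSS in all 4 libraries. The narrowing promoters included COX5B, a structural subunit of complex IV, at 14892 and 11911 bp with vehicle and 6972 and 6667 bp with CDDD11-8.

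The widest promoter regions with vehicle belonged to ATP5F1D, ATP5F1B and COX6A1. ATP5F1D, the delta subunit of the ATP synthase, lay in a region of 38393 bp in the second vehicle library and of 43445 and 41207 bp with CDDD11-8, but of 1761 bp in the first vehicle library. ATP5F1B, the catalytic beta subunit, had widths of 19114 and 20413 bp with vehicle and 8853 and 9903 bp with CDDD11-8, which do not overlap. COX6A1, the ubiquitous isoform of its complex IV subunit, had 34880 and 2429 bp with vehicle and 4637 and 3324 bp under CDDD11-8, so 1 library set its mean. The promoter region ran past the TES at 15 and 17 members with vehicle and at 12 and 7 with CDDD11-8. At such short genes, promoter, body and end were parts of a single called region. The counts of regions past the TES describe members alone, as no share of all genes was set beside them.

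Fold enrichment at the summit was ranked within each library among protein-coding promoter peaks. Its median over all genes with a peak in every library was 6.15 and 8.43 with vehicle and 26.8 and 17.5 with CDDD11-8. The members' median folds were 7.96 and 8.89 with vehicle and 29.7 and 20.3 with CDDD11-8. Both sets of medians were thus higher in both treated libraries, and the cause was not tested. The study's authors report that RNAPII enrichment over promoters rose globally with the inhibitor. A rank within a library cannot show a change shared by all promoters. Expressed as a percentile, the median member stood at 68.6 and 57.1 with vehicle and at 63.0 and 64.3 with CDDD11-8, which overlap. The percentile was higher in both CDDD11-8 libraries at 17 of 74 members and lower at 13, against 24.9% and 22.2% of all genes. The mean percentile of members exceeded that of other genes of like length by 8.04 and 0.07 points with vehicle and by 7.11 and 7.53 points with CDDD11-8, which was not separated.

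Members ranged widely in rank. With vehicle, 36 and 19 of 74 stood above the 75th percentile of promoter peaks and 6 and 7 at or below the 25th. ATP5F1B had the highest mean vehicle percentile, at 99.0 and 94.8 with vehicle and 96.5 and 77.9 with CDDD11-8. The summit of its region lay 9511 bp from the TSS in the second vehicle library, past the end of the 7.81 kb gene, so that rank is of a summit outside it. NDUFB10, an accessory subunit of complex I whose gene ends 83 bp from the ribosomal protein gene RPS2, stood at 90.7 and 98.5 with vehicle and 87.9 and 94.7 with CDDD11-8. The summit of its region lay 5303 to 5323 bp from the TSS in all 4 libraries, beyond the end of this 2.44 kb gene, so the rank is not of its own promoter. SDHD, a membrane anchor of complex II, stood at 97.4 and 89.2 with vehicle and 59.7 and 73.9 with CDDD11-8, lower in both. COX4I1, the ubiquitous isoform of complex IV subunit 4, went the other way from 36.5 and 14.9 to 92.7 and 98.9. COX4I1 was named after its values were seen.

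RNAPII regions covered less of the members' gene bodies with CDDD11-8. From 300 bp after the TSS to the TES, members were covered on average over 50.7% and 44.95% of their bases with vehicle and 37.9% and 33.2% with CDDD11-8, a separated difference of -12.3 points (vehicle 47.8 ± 4.06, CDDD11-8 35.5 ± 3.33, SD, n = 2). Coverage was lower in both CDDD11-8 libraries at 41 of 88 members, against 22.5% of all genes, and higher at 7, against 16.6%. Among the 74 members with a promoter peak in all libraries, 36 were lower and 7 higher, against 36.8% and 25.8% of all such genes. Body coverage outside the promoter peak was 21.99% and 16.4% with vehicle and 6.22% and 4.00% with CDDD11-8. With equal numbers of regions the mean body coverage was 41.6% and 38.8% against 37.3% and 33.2%, still separated but with a difference of -4.98 points, and coverage outside the promoter peak was 12.95% and 10.3% against 5.60% and 4.00%.

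The largest separated decreases over the body were at COX7A1, UQCRC1 and NDUFB4. COX7A1 was covered over 100% in both vehicle libraries and over 3.92% and 0% with CDDD11-8. UQCRC1, a core protein of complex III, was covered over 87.5% and 71.5% with vehicle and over 25.5% and 24.8% with CDDD11-8. NDUFB4, an accessory subunit of complex I whose nearest gene is 25665 bp away, was covered over 86.5% and 88.2% with vehicle and over 36.9% and 29.6% with CDDD11-8. At UQCRC1 and NDUFB4 the promoter peak was wider at the same time, at 4108 and 4847 bp against 1886 and 2185 bp for UQCRC1 and at 4310 and 3759 bp against 2239 and 2058 bp for NDUFB4.

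Body coverage was higher in both CDDD11-8 libraries by the most at NDUFS3, NDUFC1 and NDUFA1. NDUFS3, a core subunit of complex I with KBTBD4 starting 104 bp away, was covered over 38.8% and 24.5% with vehicle and over 93.3% and 65.6% with CDDD11-8. NDUFC1 was covered over 44.2% and 51.7% with vehicle and over 70.5% and 73.2% with CDDD11-8. NDUFA1, a small membrane subunit of complex I encoded on the X chromosome, was covered over 16.8% and 18.2% with vehicle and over 41.3% and 32.5% with CDDD11-8. At NDUFA1 the gene is 4.83 kb long and its promoter peak went from 2333 and 2299 bp to 4834 and 4457 bp.

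Members were covered less beyond the TES under CDDD11-8. In the 3 kb after the TES, members were covered over 60.9% and 56.3% with vehicle and over 23.0% and 16.9% with CDDD11-8, a separated difference of -38.7 points (vehicle 58.6 ± 3.23, CDDD11-8 19.96 ± 4.31, SD, n = 2). Both CDDD11-8 libraries were lower at 50 of 88 members, against 23.0% of all genes, and both were higher at 1, against 2.99%. Among the 74 members with a promoter peak in all libraries, 43 (58.1%) were lower, against 39.4% of all such genes and 40.1% of the others weighted to the members' lengths, and 1 was higher, against 3.25%. At the canonical TES, 56 of 88 members were lower and 0 higher, against 24.0% of all genes lower, and 53 of the 79 occupied members were lower, against 41.5% of such genes. With equal numbers of regions the difference was -30.5 points, and with medians in place of means it was -74.2 points.

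Of the 47 members covered over more than 50% of this window in both vehicle libraries, 15 had no region there in either CDDD11-8 library and 14 stayed above 50% in both. Another 19 members had 0% in all 4 libraries. No share of all genes was set beside these counts, so complete loss after the TES is not shown to be particular to members. NDUFB1, an accessory subunit of complex I, and ATP5MF, a membrane subunit of the ATP synthase, each went from 100% in both vehicle libraries to 0% in both CDDD11-8 libraries. COX7A2, the ubiquitous isoform of its complex IV subunit, went from 99.9% and 100% to 0% and 0%. Among members that stayed covered, NDUFB10, NDUFA7 and ATP5F1B were at 100% in all 4 libraries and have the TSS of another gene inside the window, and ATP5F1D was at 100% in all 4 without one.

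The single member with more coverage beyond the TES was ATP5MG, a membrane subunit of the ATP synthase, at 42.5% and 52.2% with vehicle and 92.9% and 75.5% with CDDD11-8. Its longest isoform ends 23431 bp past the canonical TES and has another gene's TSS in its window. At the canonical TES the same gene was covered over 81.1% and 60.0% with vehicle and over 0% in both CDDD11-8 libraries. Among core members occupied at the longest isoform's promoter, 39 of 61 with no other TSS in the window were lower, against 42.5% of all such genes, and 2 of 10 with one were lower, against 17.5%.

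**Figure D1:**
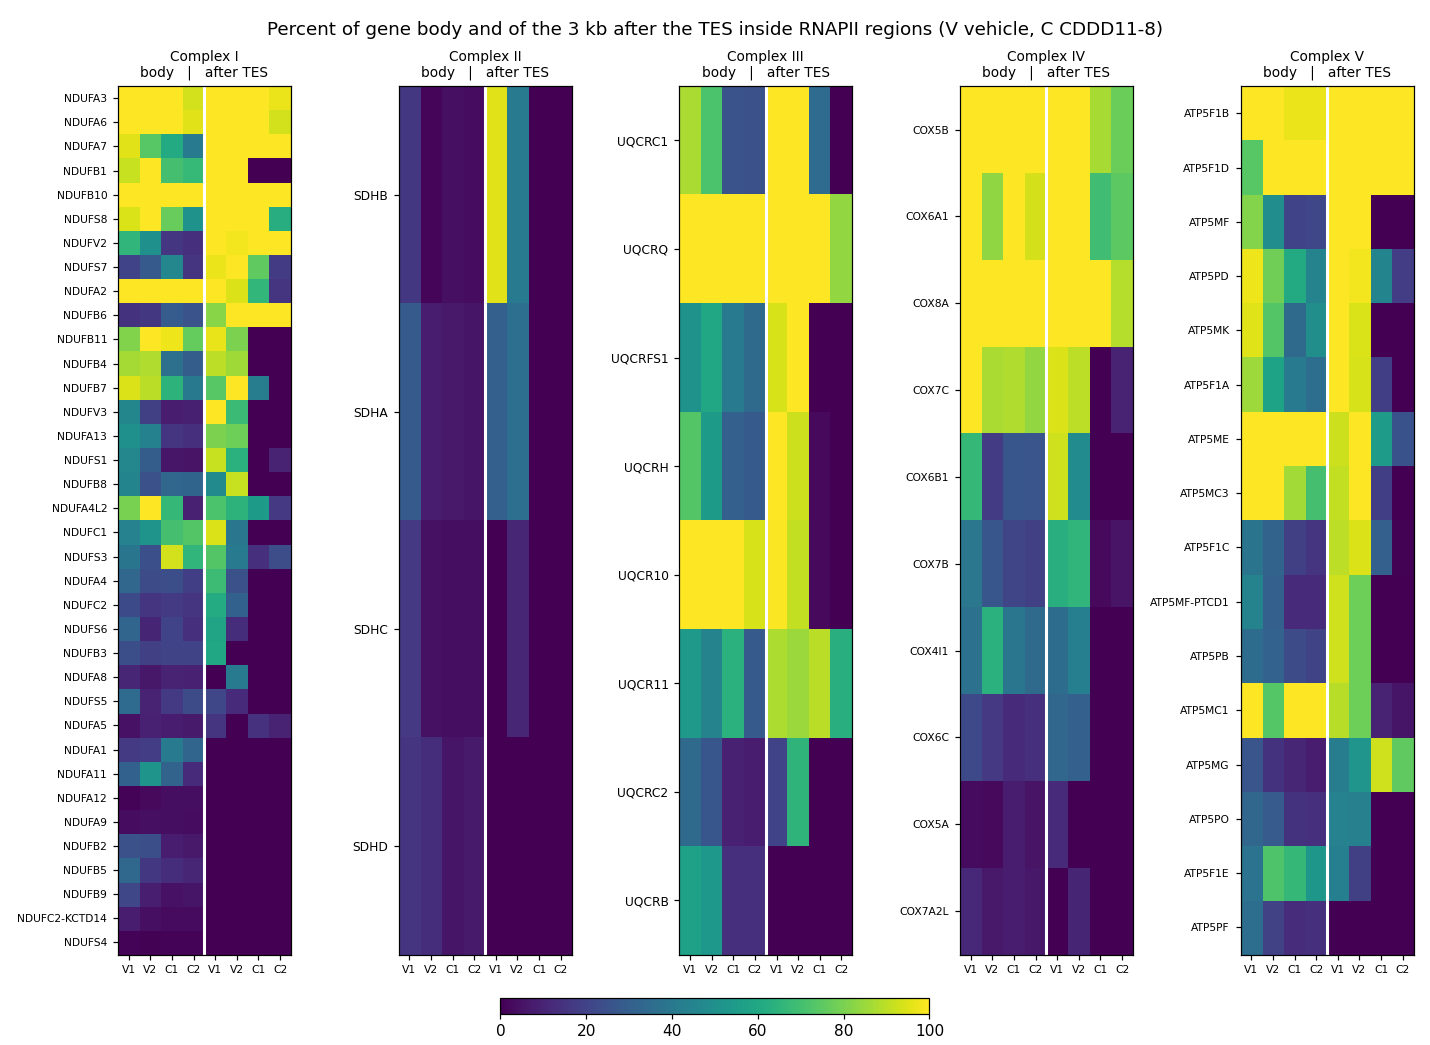
Percent of bases inside RNAPII regions for the 74 members with a promoter peak in all 4 libraries, by complex, in the gene body (left 4 columns of each panel) and the 3 kb after the TES (right 4 columns), with V1 and V2 the vehicle and C1 and C2 the CDDD11-8 replicates. Rows are ordered by vehicle coverage after the TES, on a colour scale from 0 to 100%. The right-hand columns turn darker from V1 and V2 to C1 and C2 at the 43 plotted members that were lower in both CDDD11-8 libraries, and NDUFB10 and ATP5F1B stay at 100% after the TES.

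The same direction held in each complex. Complex V had the highest coverage beyond the TES with vehicle, at 76.6% and 72.7%, and stood at 24.8% and 17.1% with CDDD11-8, with 14 of 19 members lower. Complex III went from 66.8% and 70.4% to 25.5% and 16.3%, with 5 of 9 lower. Complex I went from 58.2% and 50.9% to 25.5% and 19.1%, with 19 of 39 lower, and complex IV from 53.5% and 51.2% to 19.3% and 15.9%, with 10 of 17 lower. Of all genes, 23.0% were lower. These means and counts include members unoccupied at the longest isoform's promoter, and 10 of 17 were occupied in complex IV against 16 of 19 in complex V. Among occupied members alone, 12 of 16 were lower in complex V, 5 of 8 in complex III, 17 of 36 in complex I and 7 of 10 in complex IV. The share of all occupied genes was 39.4%. The differences among complexes were not tested.

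Complex II, whose 4 genes have a median length of 37.04 kb, had no coverage beyond the TES with CDDD11-8. SDHA, the flavoprotein that oxidises succinate, was covered there over 30.8% and 36.3% with vehicle, and SDHB, the iron-sulphur subunit, over 95.4% and 41.5%. SDHC, a membrane anchor, was at 0% and 10.9%, and SDHD was at 0% with the longest isoform, which ends 24221 bp past the canonical TES, and at 46.0% and 59.5% at the canonical TES. All 4 genes were at 0% in both CDDD11-8 libraries at either TES. Body coverage of SDHA was 28.4% and 7.51% with vehicle and 6.68% and 5.49% with CDDD11-8. SDHA and SDHB promoter peaks were wider in both CDDD11-8 libraries, at 4972 and 4367 bp against 3373 and 3037 bp for SDHA and at 3483 and 2731 bp against 2440 and 1429 bp for SDHB. Those of SDHC overlapped between treatments and that of SDHD was narrower, at 5992 and 5287 bp against 6362 and 6740 bp.

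Members of each complex were also described by gene length. NDUFA2, the shortest complex I gene at 2.35 kb, was covered over 100% of its body in all 4 libraries and beyond its TES over 100% and 94.7% with vehicle and 66.3% and 15.4% with CDDD11-8. NDUFS4, the longest at 123 kb and an accessory subunit of complex I, had body coverage of 0.88% and 0.76% with vehicle and 0.99% and 1.034% with CDDD11-8 and none beyond the TES, while its promoter peak was 1373 and 1615 bp with vehicle and 2490 and 2966 bp with CDDD11-8. NDUFA11, of median length in complex I, had 0% beyond the TES of its longest isoform and, at the canonical TES, 77.3% and 100% with vehicle and 62.6% and 0% under CDDD11-8. In complex III, UQCR11, a small subunit of median length, was covered beyond the TES over 87.7% and 85.1% with vehicle and 89.6% and 63.3% with CDDD11-8, which overlap, and UQCRC2, a core protein and the longest, over 20.1% and 64.9% with vehicle and 0% under CDDD11-8. In complex IV all 3 genes picked by length (COX6A2, COX4I2 and COX7B2) were unoccupied throughout. In complex V, ATP5PD, a subunit of the peripheral stalk, was covered over 100% and 98.4% with vehicle and 45.3% and 18.2% with CDDD11-8, and the readthrough ATP5MF-PTCD1 over 92.8% and 78.0% with vehicle and 0% with CDDD11-8.

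Distance from the TES was resolved further for the 61 members at least 5 kb long with a promoter peak in all libraries. Mean coverage was 55.2% ± 6.41 with vehicle and 16.1% ± 6.98 with CDDD11-8 in the first 1 kb (SD, n = 2), and 55.8% ± 2.23 and 18.1% ± 2.48 from 1 to 3 kb. From 3 to 5 kb it was 38.5% ± 3.40 and 20.2% ± 3.29, and from 5 to 10 kb 18.7% ± 4.03 and 15.04% ± 2.85, where the libraries overlapped. The 8615 other genes of that kind went from 39.96% to 16.4% in the first 1 kb, from 42.2% to 18.2% between 1 and 3 kb, from 34.1% to 18.0% between 3 and 5 kb and from 22.3% to 14.6% between 5 and 10 kb. In each of the first 3 intervals both vehicle libraries were higher for members than for the others. The others were not weighted to the members' lengths here, so this gap includes any difference in gene length.

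**Figure D2:**
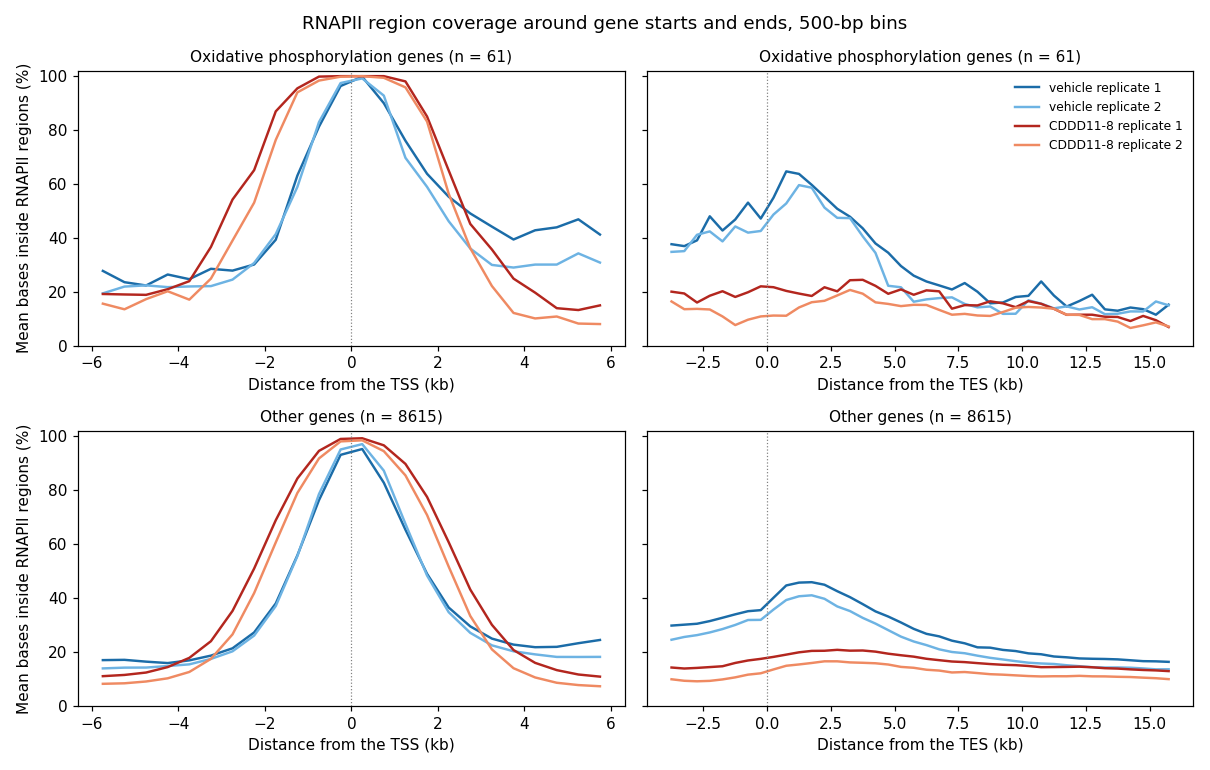
Mean percent of bases inside RNAPII regions in 500-bp bins around the TSS (left) and TES (right), for the 61 members (top) and 8615 other genes (bottom) at least 5 kb long with a promoter peak in all libraries, 1 line per library. The CDDD11-8 lines are broader around the TSS. In the TES panel of members they lie below the vehicle lines from the left edge to about 5 kb beyond the TES. In the TES panel of other genes they lie below the vehicle lines throughout. Past the TES the vehicle lines of members reach 64.7% and 59.6%.

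Gene length was then held in common. Weighted to the members' lengths in 6 strata, other genes had body coverage of 24.9% and 23.1% with vehicle and 21.5% and 17.8% under CDDD11-8, so members exceeded them by 25.8 and 21.8 points with vehicle and by 16.4 and 15.4 points with CDDD11-8. The change in this excess, -7.93 points, was -3.93 points with equal numbers of regions and -3.82 points when other genes were matched on vehicle fold as well as length, where members exceeded them by 6.23 and 4.07 points with vehicle. Beyond the TES other genes had 30.7% and 28.4% with vehicle and 19.0% and 15.2% under CDDD11-8, so members exceeded them by 30.2 and 28.0 points with vehicle and by 3.99 and 1.75 points with CDDD11-8. The change in this excess was -26.2 points, and its libraries were separated (two-sided exact permutation p = 0.33). Matched on vehicle fold as well, it was -16.6 points.

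The excess was smaller among genes occupied at the promoter. Restricted to genes occupied at the promoter in all libraries, the 74 members were covered beyond the TES over 63.8% and 59.1% with vehicle and 26.0% and 19.9% with CDDD11-8, and the others over 55.0% and 51.0% and over 33.0% and 26.6%. Members were therefore above others by 8.80 and 8.03 points with vehicle, while the difference under CDDD11-8 was -6.95 and -6.69 points, a change of -15.2 points that was separated. Over the gene body the same restriction gave members minus others of 5.49 and 2.93 points with vehicle and -0.17 and 0.77 points with CDDD11-8, also separated. This restriction was chosen after the data were seen.

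By stratum, coverage beyond the TES was lower with CDDD11-8 for members of each length. In the 2 occupied members under 2 kb it went from 98.1% to 67.3%, against 75.2% to 73.2% in 250 other genes, and in the 11 of 2 to 5 kb from 87.0% to 45.5%, against 67.2% to 49.3% in 762. In the 21 members of 5 to 10 kb it went from 78.3% to 27.3%, against 60.0% to 36.0% in 1110 other genes, and in the 19 of 10 to 20 kb from 52.8% to 9.53%, against 49.97% to 23.6% in 1731. In the 14 members of 20 to 40 kb it went from 41.2% to 21.8% and in 2054 others from 43.5% to 17.6%, so the members' change was not the larger one there. In the 7 members of at least 40 kb it went from 24.1% to 0.69%, against 30.8% to 9.42%. Body coverage of the 11 members of 2 to 5 kb was 88.0% with vehicle and 91.2% with CDDD11-8.

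**Figure D3:**
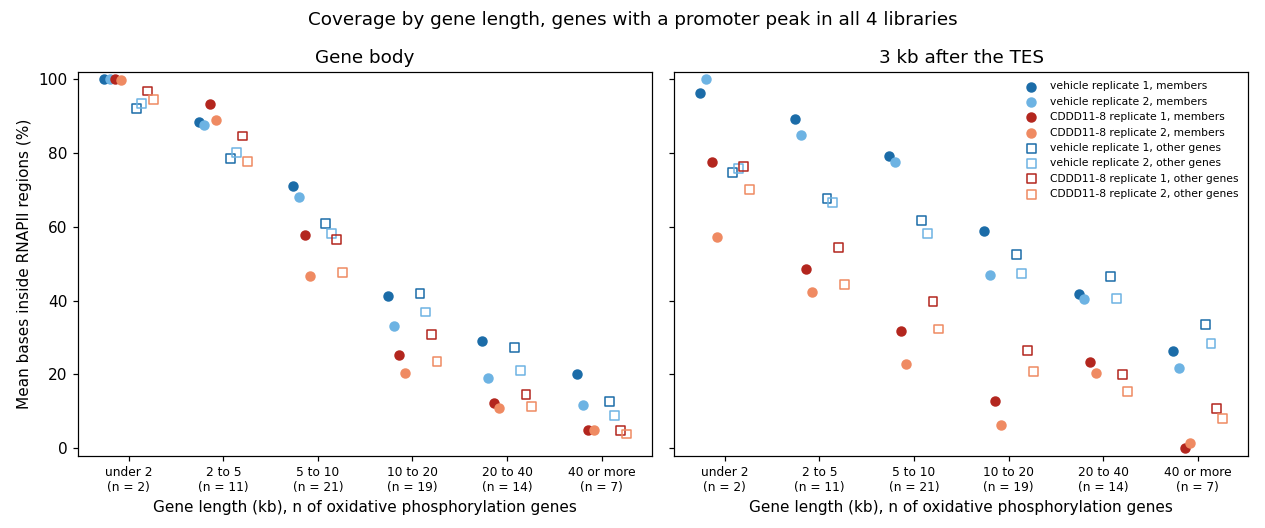
Mean percent of bases inside RNAPII regions in the gene body (left) and in the 3 kb after the TES (right) by gene length, for genes occupied at the promoter in all 4 libraries. Filled circles are the members, open squares the other genes and colours the libraries, and n under each stratum counts members. After the TES, the members' vehicle circles lie above the vehicle squares up to 10 kb and their CDDD11-8 circles lie below the CDDD11-8 squares from 2 to 20 kb and from 40 kb.

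Core members with and without a promoter motif were set side by side at the canonical ends. Coverage beyond the TES was lower in both CDDD11-8 libraries at 17 of 25 with the NRF1 core and 35 of 52 without it, at 19 of 24 with the ETS core and 33 of 53 without it and at 14 of 21 with the YY1 core and 38 of 56 without, beside 41.5% of all genes occupied at the canonical promoter. The promoter peak was wider at 15 of 25 with the NRF1 core and 28 of 52 without it. It was wider at 10 of 24 with the ETS core and 33 of 53 without it. With the YY1 core it was wider at 12 of 21 and without that core at 31 of 56, beside 64.5% of all such genes. These differences were not tested.

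Other genes of the pathway were taken from a list of 56 assembly factors, electron carriers and related genes. Of these, 54 had a promoter peak in all libraries, with 30 (55.6%) wider and 9 (16.7%) narrower in both CDDD11-8 libraries, against 64.4% and 9.42% of all occupied genes. Coverage beyond the TES was lower at 24 of 56 (42.9%), against 23.0% of all genes. Among the 54 occupied it was lower at 23, near the 39.4% of all occupied genes. It was higher at 2, ECSIT (an assembly factor of complex I) and UQCC4 (an assembly factor of complex III), against 2.99% of all genes. Body coverage was lower at 24 of the 56 (42.9%) and higher at 12 (21.4%), against 22.5% and 16.6% of all genes. The shares of all occupied genes were 36.8% and 25.8%. CYCS, the electron carrier cytochrome c, was covered beyond its TES over 74.2% and 88.4% with vehicle and 0% with CDDD11-8, while CYC1, the cytochrome subunit of complex III, was at 100% in all 4 libraries. Among 8 regulators of these genes, 7 had a promoter peak in all libraries and all 7 were wider with CDDD11-8, against 64.4% of all occupied genes. The GABPA peak is the same region as that of the member ATP5PF, whose TSS lies 68 bp away, so these are not independent. Coverage beyond the TES was lower in both CDDD11-8 libraries at 2 of the 8 regulators, TFAM and NRF1, against 23.0% of all genes. TFAM, a transcription factor that also packages mitochondrial DNA, was covered there over 58.6% and 43.7% with vehicle and 0% with CDDD11-8. YY1 was covered there over 98.3% and 100% with vehicle and ESRRA over 100% and 96.4%, and both over 100% in both CDDD11-8 libraries. PPARGC1A, a coactivator of the pathway, had no promoter peak and no coverage of body or end in any library.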

How the data were processed

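RNAPII was profiled by ChIP-seq in MDA-MB-453 cells given vehicle or 600 nM CDDD11-8 for 4 h, with 2 libraries per treatment. The authors mapped reads with Bowtie 2 to GRCh37. Peak calling, also theirs, used MACS2 at default settings, 1 library at a time against its own input. Versions are not given in the sources used here, and replicates were not pooled. In the deposited lists the fold enrichment is a ratio of ChIP signal at the summit to local background, and the deposited q-value is on the −log10 scale. Region ends and summit positions are given in bp. The study's methods set a minimum number of reads per sample, but the lists carry no counts, so depth is unknown for the single libraries and no counting interval can be given. The 4 input libraries were not analysed here, and 0 columns of other samples were present.

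Lines with the same ends were taken as 1 region. For the longest isoform of each protein-coding gene, a promoter peak was the region with the highest fold enrichment that overlapped the TSS ± 300 bp by at least 1 bp. Coverage was the percent of bases inside regions from 300 bp after the TSS to the TES and over the 3 kb after the TES. Other genes were averaged within length strata cut at 2, 5, 10, 20 and 40 kb, weighted by the number of members. Differences between treatments were tested over libraries with a two-sided exact permutation test of all 6 splits. The measures were tested on simulated peaks with known ends. Motifs were searched in the GRCh37 sequence. Python 3.11.15, pandas 2.3.3, numpy 2.4.6, scipy 1.17.1 and matplotlib 3.10.9 were used.

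Named genes were the 4 complex II genes, the shortest, median and longest of each other complex, members without a promoter peak in some library, the 3 largest separated differences in each direction in body and post-TES coverage, and the 3 widest and 3 highest-ranked promoters with vehicle. A member that this rule names and 1 marker gene are not reported here. COX4I1, COX5B, ECSIT, UQCC4, CYCS, CYC1, TFAM, NRF1, GABPA, YY1 and ESRRA, and the promoters printed, were chosen after their values were seen. The members and lists were chosen with earlier results of these data known.

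Alternatives were a −log10 q of at least 5, equal numbers of regions (21842, that of the shortest list), the canonical isoform, a promoter from 50 bp before to 300 bp after the TSS, regions within 1 kb merged, genes at least 1 kb long and 3 kb from others, other body, post-TES and ranking choices, each library left out and a replicate block. The restrictions to genes occupied at the promoter in all libraries, to windows without another TSS and to core members were added after the data were seen.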

Additional observations from a re-analysis of the deposited data

How the results depend on the processing

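For the 7 results separated in the main setting, all alternative values but 2 kept their direction, and of the 74 with 4 libraries 72 kept their separation too, including each value of body and post-TES coverage and of both in excess of other genes. For the 4 results that were not separated, 16 of 52 values changed sign or left 0, such as the median percentile, from 0.76 to -3.61 points without vehicle replicate 2 and -0.64 without CDDD11-8 replicate 2, and its excess over other genes, from 3.27 to -0.69 points without vehicle replicate 2. Width turned to -697 bp and downstream reach to -439.5 bp when regions within 1 kb were merged. The number of members with a promoter peak, equal in the main setting, differed by 2.00 with equal numbers of regions, by -1.5 at the canonical TSS and by 1.5 in isolated genes. The percentile in excess of other genes became separated at the canonical TSS (5.21 points), and the members' median percentile did so when ranked among all regions of a list (-7.16 points). Width in excess of other genes became separated in isolated genes (782 bp) and without length strata (-176 bp). The cause of these shifts was not tested. Leaving out 1 library gave -208.6 to 266.8 bp for width in excess of other genes, negative without CDDD11-8 replicate 2, and 359.5 to 760.8 bp for downstream reach, with the lowest value without vehicle replicate 2. The mean post-TES coverage then differed by -41.7 to -35.6 points, body coverage by -15.2 to -9.41 points and median width by 1075 to 1611 bp.

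Same-numbered libraries were not shown to be paired, as the differences between replicates 1 and 2 with vehicle and with CDDD11-8 had a correlation over genes of -0.06 (post-TES) and -0.02 (body). In the fit with the replicate block, the differences were the same -38.7 and -12.3 points, with a sign-flip p of 0.5, the smallest that 2 pairs can give, and no separation changed. Peak lists hold no depth, so a base outside a region shows only that it was not called at that library's depth and scaling.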
